A study of Rattus norvegicus with 10 samples.

Results

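The Vps and sorting nexin genes encode proteins that shape endosomes and route cargo through them, and their transcripts were compared between 2 rat strains in a brainstem nucleus. The members were all probe sets whose single gene symbol in the platform annotation began with Vps or Snx followed by a digit. This gave 92 probe sets of 60 genes among 31042 probe sets of the series, 55 probe sets for 35 Vps genes and 37 for 25 Snx genes. The tissue was the nucleus tractus solitarii (NTS), where baroreceptor and other visceral afferents end, from male rats aged 10 to 13 weeks. One group was the spontaneously hypertensive rat (SHR), an inbred strain with high blood pressure, and the other was the Wistar-Kyoto rat (WKY), its usual normotensive control. No treatment is given for either strain. Amplified RNA was hybridised to 1-colour Affymetrix Rat 230 2.0 arrays, 5 per group. The series describes its arrays as independent biological replicates, but sample descriptions mention 5 animals, so whether 1 animal or a pool was hybridised is unclear. If pools or repeats were used, p-values reflect only array-to-array spread. The question is which of these endosomal transcripts have unequal levels in SHR and WKY.

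Endosomes receive membrane from the cell surface and sort each protein back to the surface, to the Golgi or to the lysosome for breakdown. The Vps genes were named after yeast mutants that missort vacuolar proteins, and many of their products work as subunits of fixed complexes. Retromer and the sorting nexins, proteins with a lipid-binding PX domain, carry receptors out of endosomes. GARP and EARP tether vesicles at the Golgi and at recycling endosomes, HOPS and CORVET tether late and early endosomes before fusion, ESCRT packs ubiquitinated receptors into internal vesicles, and Vps13 proteins pass lipids between membranes at contact sites. In neurons these routes return synaptic and neurotransmitter receptors to the membrane.

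A signal here is the deposited linear value of a probe set, and the log2 differences are SHR minus WKY of log2(signal + 16), given with the standard error (SE) of a limma fit over all 18846 probe sets that were bright enough. Their adjusted p-values are Benjamini-Hochberg values over all of these. The level of one probe set is not compared with that of another, and where probe sets of a gene are set side by side it is their strain differences that are given. Of the 92 member probe sets, 76 of 57 genes passed the filter on low signals, and 67 of these reached the filter level on all 10 arrays. Adjusted p was below 0.05 for 7 of the 76, or 9.21%, 3 of them lower and 4 higher in SHR, and the same share over all probe sets tested was 4.26% (2.2% lower and 2.06% higher). The 7 probe sets belong to 5 genes. Snx10, Vps13c and 1 probe set of Vps33a were lower in SHR, and 2 probe sets each of Snx27 and Vps52 were higher. Of the 7, 5 differed by 1.5-fold or more, 6.58% of the members tested against 1.31% of all probe sets. Of these 5, Vps13c and Vps52 1394386_s_at passed the filter only or mainly through the strain in which they are higher, and both fell below 1.5-fold with an offset of 64 in place of 16 (log2 differences of -0.50 and 0.47). The members as a whole did not lean one way: 42 had a difference below 0 and 34 above, the median was -0.019, and over all probe sets the median was 0.016. The differences of 56 of the 76 were smaller than 0.20 log2 units. SHR and WKY arrays did not overlap for 9 of the 76, 11.8% against 6.13% of all probe sets tested. SHR lay below in 3 of these (2.91% of all probe sets) and above in 6 (3.22% of all probe sets).

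**Figure D1:**
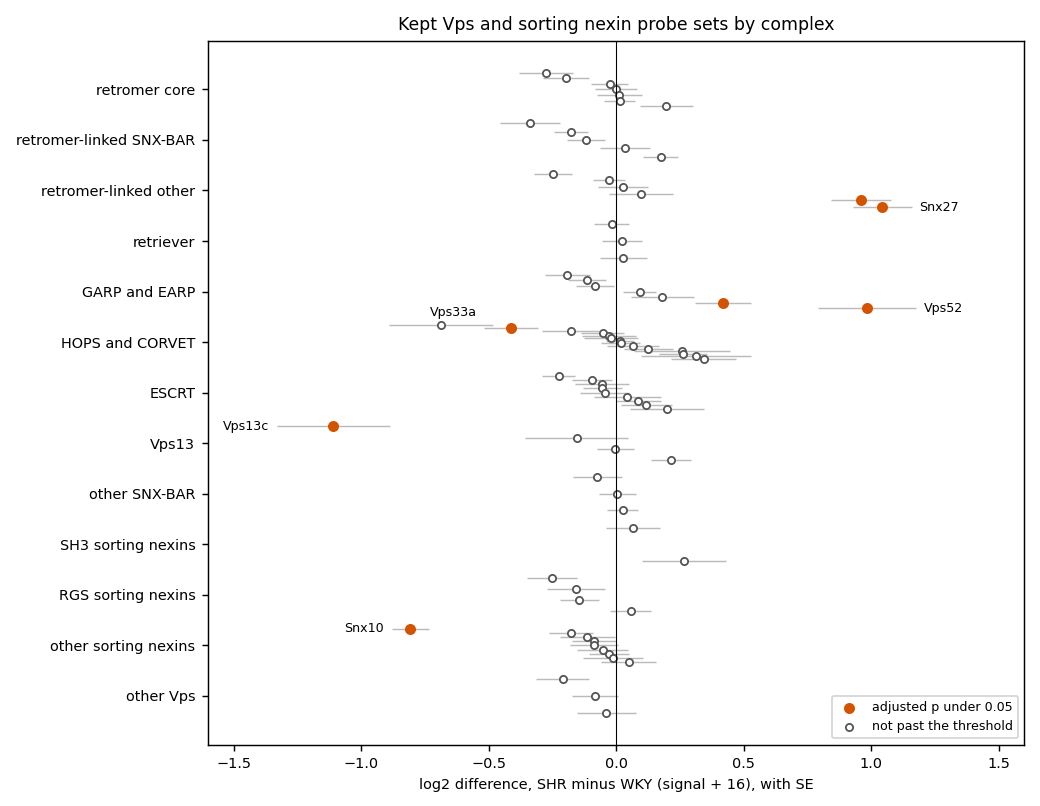
Log2 difference (SHR minus WKY) with SE, on the horizontal axis, of the 76 kept Vps and sorting nexin probe sets, in rows by complex. Filled points are the 7 with adjusted p below 0.05, which lie at -1.11 for Vps13c, -0.81 for Snx10, -0.41 for Vps33a, 0.42 and 0.98 for Vps52, and 0.96 and 1.04 for Snx27, while most open points lie close to 0.

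Arrays shared 1 trimmed mean through their scaling, but their median signals differed and moved in part with strain. Array medians over all probe sets were 44.2 to 49.8 for SHR and 39.6 to 45.7 for WKY. The 40th percentiles were 31.3 to 35.9 for SHR and 26.3 to 32.0 for WKY. The array median thus follows the lower and middle signals and not the scaled mean of an array. NTS markers were present, with 11 of 14 listed genes on the array and all 14 of their probe sets bright enough, among them Dbh, Th, Prlh and Phox2a. Of these 14, 2 were lower in SHR, Prlh by -0.42 and Hoxb3 by -0.35 on the log2 scale, and 5 had an unadjusted p below 0.05. The rest of these 5, Gcg (-0.50), Dbh (-0.27) and Th (-0.18), also lay below 0. The median of the 14 was -0.049. Summed over the brightest probe set of each gene, the list gave 3502 to 3865 in SHR and 3847 to 4852 in WKY, a narrow overlap. Motor neuron markers were also present, with 4 of 6 probe sets bright enough (Chat, Slc18a3, Slc5a7 and Prph). Of the cerebellar markers, 8 of 10 were bright enough, and 0 passed in either list. Over all marker lists, 12 of 114 kept probe sets passed, 9 lower and 3 higher, or 10.5% against 4.26% of all probe sets. Among markers of other cells, those of microglia and macrophages had 4 of 13 kept probe sets lower and 0 higher. The 4 were C1qa, C1qb, Lyz2 and 1 probe set of Aif1. A second Aif1 probe set (0.51, limma adjusted p = 0.124) and Cx3cr1 (0.19) lay above 0 without passing. C1qc, Csf1r, Itgam, P2ry12, Tmem119 and Tyrobp lay below 0 and did not pass either. The summed signal of the brightest probe set of each of the 13 genes was 1650 to 1706 for SHR and 1949 to 2174 for WKY. In a dissected tissue, fewer cells of a type and less RNA per cell cannot be told apart. Choroid plexus markers had 2 of 5 kept probe sets higher (Enpp2 and Sostdc1), while Ttr differed by 0.068. Their sums overlapped, at 915 to 1060 in SHR and 708 to 976 in WKY. The sums of neuronal, astrocyte, oligodendrocyte and endothelial markers also overlapped between the strains. Single markers in these lists still passed: Mobp of oligodendrocytes (-1.41 and -0.34 on 2 probe sets), Vwf of endothelium (-0.52) and Snap25 of neurons (0.33). The part of these marker levels in the results on members was not tested. With array median signal as a covariate, 5 of the 7 members kept their call, and those of Vps33a and of Vps52 1369667_at ended, while 209 of all probe sets passed in place of 803. The 3' to 5' signal ratio of the Gapdh controls was 1.12 to 1.34 for SHR and 1.07 to 1.1999 for WKY, that of beta-actin 2.26 to 3.92 and 2.64 to 3.54, and that of hexokinase, the widest, 2.22 to 20.2 and 9.17 to 21.3.

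Retromer core subunits had closely similar signals in both strains on the brightest probe set of each gene. Vps35, the scaffold of the retromer trimer, had signals of 769, 740.4, 876, 783 and 772 on the SHR arrays and 726, 764, 798, 762 and 851 on the WKY arrays. The strains overlapped, and the log2 difference was 0.014 ± 0.061, with a 95% confidence interval from -0.11 to 0.14 and an adjusted p of 0.924. Vps29, the small subunit that docks regulators on Vps35, had 730.4, 657, 641, 664 and 809 in SHR and 681, 646, 683, 761 and 792 in WKY. Its log2 difference was -0.026 (interval from -0.18 to 0.13). Vps26a and Vps26b are alternative arrestin-like subunits that bind cargo adaptors. The brightest probe set of Vps26a had 128, 158, 136, 154 and 134 in SHR and 134, 172, 125, 142 and 133 in WKY, a log2 difference of 0.012 (interval from -0.18 to 0.20). That of Vps26b had 285, 228, 226, 254 and 285 in SHR and 285, 260.1, 218, 262 and 253 in WKY, with a log2 difference of -0.0012 (interval from -0.18 to 0.18). These intervals leave room for differences of up to about 0.20 log2 units. The dimmer probe sets spread more widely, at -0.28 for Vps26a and at -0.20 and 0.20 for Vps26b. None of the 7 core probe sets passed in limma, although 2 had an unadjusted p below 0.05, and their median was -0.0012.

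The SNX-BAR sorting nexins, which bend the endosomal membrane into tubules and pair Snx1 or Snx2 with Snx5 or Snx6, did not pass either. None of the 5 probe sets had an adjusted p below 0.05, and 3 had an unadjusted p below 0.05. Snx2 came closest, with 197, 172, 142, 186 and 254 in SHR and 235, 195, 246, 263 and 272 in WKY. Its SHR arrays were mostly the lower ones, with SHR 3 lowest, but SHR 1 and SHR 5 lay within the WKY range, and the log2 difference was -0.34 ± 0.12 (adjusted p = 0.114). Without SHR 5 the difference was -0.44 and passed (adjusted p = 0.0209), but it shrank to -0.18 when SHR 2 and SHR 3 were left out together (0.449) and to -0.037 after adding array median signal as a covariate (0.962). The partners Snx5 and Snx6 differed in opposite directions, by -0.18 ± 0.066 and 0.17 ± 0.068 (adjusted p = 0.133 and 0.153), and Snx1 and Snx32 by -0.12 and 0.034.

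Snx27 was the member with the largest increase in SHR, and its 4 probe sets disagreed. Snx27 is a sorting nexin with a PDZ domain that links retromer to receptors such as the beta-2 adrenergic receptor and ionotropic glutamate receptors and returns them to the cell surface. Probe set 1379804_at had signals of 189, 147, 145, 156 and 202 on the SHR arrays and 93.3, 56.7, 79.2, 67.0 and 70.8 on the WKY arrays. Every SHR array lay above every WKY array, by 2.06-fold between means on the log2 scale, a log2 difference of 1.04 ± 0.12 (adjusted p = 2.74e-05). Probe set 1377526_at had 123, 117, 117, 110.5 and 144 in SHR and 75.3, 40.4, 62.1, 50.5 and 51.3 in WKY, which gave a log2 difference of 0.96 ± 0.12 (adjusted p = 9.91e-05). On both, SHR 5 was the highest SHR array and WKY 1 the highest WKY array, and both calls held in all 22 alternatives fitted on probe sets. The brightest probe set, 1372203_at, was on the other side of 0, with 523, 445, 434, 508 and 483 in SHR against 543, 533, 513, 641 and 629 in WKY. That difference was -0.25 ± 0.075 and did not pass (adjusted p = 0.0708). The last, 1381394_at, had 94.7, 86.5, 69.1, 89.1 and 77.2 in SHR and 86.2, 66.6, 89.2, 84.8 and 80.5 in WKY, a log2 difference of 0.026 ± 0.10.

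The strain differences of the Snx27 probe sets thus spanned 1.29 log2 units. The 2 probe sets that were higher in SHR had differences within 0.082 of each other, and each lay 0.93 or more above the other probe sets. These spans are given as a description, with no test, because the probe sets were set side by side after their values had been seen. The transcripts or exons behind each probe set were not analysed here. Of the other cargo adaptors of retromer, Snx3 and Snx12 differed by -0.028 and 0.096 and did not pass.

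**Figure D2:**
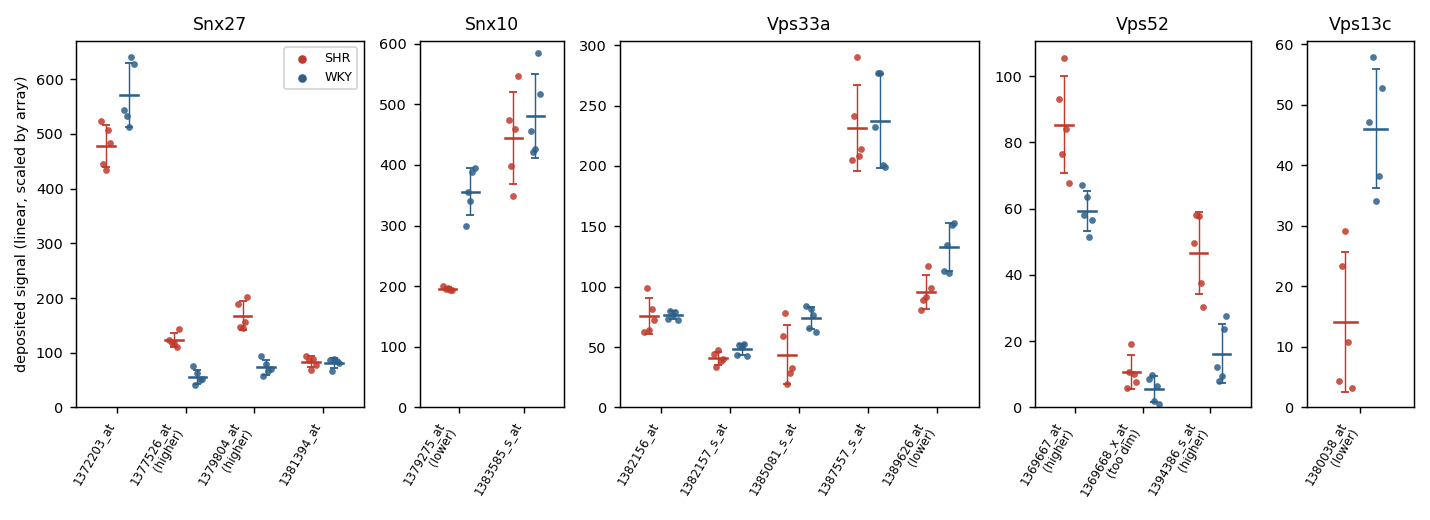
Deposited signal (linear, vertical axis from 0) of every probe set of the 5 genes with a differing probe set, with 1 point for each array, a line at the mean and bars of 1 SD (n = 5 in each strain). On Snx27, the 2 probe sets marked higher have means of 168 and 122 in SHR and 73.4 and 55.9 in WKY, while the probe set with the highest signal has 478 and 572.

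Retriever is a retromer-like complex of Vps26c, Vps35l and the shared Vps29 that works with the adaptor Snx17. Its 3 kept probe sets had log2 differences between -0.018 and 0.027, and 0 passed in limma, also at an unadjusted p below 0.05. Vps26c had 91.1, 88.7, 84.5, 103 and 104 in SHR and 84.8, 102, 79.4, 93.2 and 102 in WKY, a log2 difference of 0.027 (95% confidence interval from -0.17 to 0.22).

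Among the subunits of GARP, which tethers endosome-derived vesicles at the trans-Golgi network, and of EARP, its recycling endosome counterpart, Vps52 was higher in SHR. Vps52 is shared by both complexes. Probe set 1369667_at had signals of 93.2, 76.6, 105, 83.9 and 67.7 in SHR and 67.0, 58.2, 63.5, 51.5 and 56.7 in WKY. Every SHR array was above every WKY array, with SHR 5 and WKY 1 nearly touching, and the log2 difference was 0.42 ± 0.11 (adjusted p = 0.0388). Probe set 1394386_s_at had 49.5, 58.1, 57.9, 37.5 and 30.3 in SHR and 12.2, 7.87, 9.46, 23.6 and 27.6 in WKY. Here too the strains did not overlap, and the log2 difference was 0.98 ± 0.19 (adjusted p = 0.00667), or 1.59 with an offset of 1 and 0.47 with an offset of 64. Only 1 WKY array and 4 SHR arrays reached the filter level on this probe set, so it entered the test largely through the strain in which it is higher. The strain differences of these 2 probe sets lay 0.56 apart. The remaining probe set was too dim for the filter, at 5.73, 10.6, 19.1, 9.98 and 7.65 in SHR and 8.69, 9.71, 2.05, 6.41 and 0.972 in WKY.

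The call of the brighter Vps52 probe set was fragile. It ended in 8 of the 10 fits that left out 1 array (adjusted p from 0.0518 to 0.114 in these), with quantile normalization (0.0613) and after adding array median signal as a covariate (log2 difference 0.24). The call of 1394386_s_at held in all of these fits and ended without both SHR 2 and SHR 3 (adjusted p = 0.0601). Fits that left arrays out kept the probe sets chosen on all 10 arrays. This probe set reached the filter level on just 5 arrays, so its place in those fits was given in advance. The subunits that stand beside Vps52 did not pass: Vps51 differed by -0.19, Vps54 of GARP by -0.084, Vps50 of EARP by 0.093, and the 2 probe sets of Vps53 by -0.12 and 0.18. So 2 of the 7 kept probe sets of these complexes, both of Vps52, differed, or 28.6% against 4.26% of all probe sets.

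HOPS and CORVET share a core of Vps11, Vps16, Vps18 and Vps33a, to which HOPS adds Vps39 and Vps41 and CORVET adds Vps8. Of 14 kept probe sets of these genes and of the related Vps33b, 1 was lower in SHR and 0 higher. That is 7.14% against 4.26% of all probe sets, and the median log2 difference of the 14 was 0.016. The one that passed belongs to Vps33a, the Sec1/Munc18-type subunit that guides SNARE assembly. Probe set 1389626_at had signals of 80.5, 89.2, 91.6, 118 and 98.7 in SHR and 113, 135, 112, 151 and 152 in WKY. SHR 4 lay above WKY 1 and WKY 3, and the log2 difference was -0.41 ± 0.11 (adjusted p = 0.0371). This call ended in 6 of the 10 fits without 1 array (adjusted p from 0.0613 to 0.116 in these), with the median-signal covariate (log2 difference -0.21), without the filter and without the intensity trend. The other 4 probe sets of Vps33a differed by -0.69 ± 0.21 (1385081_s_at), -0.18, -0.029 and -0.020, all below 0 and none past the threshold. On 1385081_s_at the SHR arrays were split, with 59.0 and 78.4 on SHR 1 and SHR 2 and 19.4, 28.4 and 32.4 on SHR 3 to SHR 5, while the WKY arrays had 83.6, 66.1, 81.7, 76.6 and 62.7. It missed the threshold (adjusted p = 0.0674) but passed without SHR 1 (0.0451) or without SHR 2 (0.0105), and over all alternatives the difference ran from -0.92 to -0.39, with an adjusted p of up to 0.295. Probe set 1382157_s_at had 44.3, 33.3, 47.2, 38.3 and 40.2 in SHR and 43.2, 51.9, 50.2, 52.2 and 42.6 in WKY. The brightest, 1387557_s_at, had 205, 241, 290.1, 208 and 214 in SHR and 232, 277, 277, 200.4 and 199 in WKY, so the strains overlapped on both. Probe set 1382156_at, with the difference nearest 0, had 62.2, 98.5, 64.4, 81.8 and 71.99 in SHR and 72.8, 79.6, 76.5, 79.2 and 72.7 in WKY. The strain differences of 1389626_at and 1382156_at lay 0.39 apart.

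Vps18, the RING-domain subunit of the core, had both probe sets above 0 without passing. Probe set 1393222_at had 97.4, 113, 90.7, 91.7 and 121 in SHR and 79.6, 77.9, 78.7, 89.4 and 87.8 in WKY, so that every SHR array was above every WKY array (log2 difference 0.26 ± 0.092; adjusted p = 0.118). Probe set 1384443_at had 51.7 to 81.6 in SHR and 37.4 to 57.8 in WKY (0.34 ± 0.13; adjusted p = 0.136). When the probe sets of each gene were averaged before the fit, Vps18 just passed, at 0.30 ± 0.081 (limma, adjusted p = 0.0498 over 10668 genes). Vps11, Vps16, Vps39 and Vps8 differed by 0.13, -0.053, 0.064 and 0.017. Vps41 differed by 0.015 on a bright probe set, with 1078 to 1166 in SHR and 1055 to 1204 in WKY, and by 0.31 ± 0.22 on a dim one. Vps33b, which acts in a separate tethering complex, varied widely among arrays of both strains, 77.6 to 151 for SHR and 67.0 to 149.5 for WKY.

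Of the 4 core subunits, Vps11, Vps16 and Vps33a hold a short sequence upstream of their genes that Vps18 lacks in the same window. The hexamer CACGTG is the centre of the CLEAR element, which TFEB and related factors bind in genes of the lysosome, and it reads alike on both strands. In the 250 bases before the annotated start, RefSeq windows of GRCr8 were found for 51 of the 60 genes, and 10 of the 51 held CACGTG, or 19.6%. The share was 7.82% for the 11733 genes named on the array that have a window and 5.79% for all 27457 windows. By complex, 3 of 8 genes of HOPS and CORVET held it (Vps11, Vps16 and Vps33a), and the other members were Vps26a, Vps26c, Vps37b, Vps50, Snx2, Snx8 and Snx18. The windows of the 4 core subunits are shown because they allow the copies to be seen side by side, 5′ to 3′ on the gene's strand, with CACGTG in capitals.
Vps33a, GRCr8 chr12:38685274-38685523, plus strand: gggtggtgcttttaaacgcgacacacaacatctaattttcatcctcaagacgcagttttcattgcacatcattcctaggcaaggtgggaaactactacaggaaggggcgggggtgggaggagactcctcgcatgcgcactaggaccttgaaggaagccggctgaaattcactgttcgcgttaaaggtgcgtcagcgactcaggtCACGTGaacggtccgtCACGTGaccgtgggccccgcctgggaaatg
Vps11, GRCr8 chr8:53595378-53595627, minus strand: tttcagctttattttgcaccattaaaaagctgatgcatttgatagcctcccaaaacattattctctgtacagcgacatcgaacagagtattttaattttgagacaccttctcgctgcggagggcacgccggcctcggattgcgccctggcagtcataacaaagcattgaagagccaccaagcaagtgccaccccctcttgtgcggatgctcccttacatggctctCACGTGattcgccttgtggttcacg
Vps16, GRCr8 chr3:138075460-138075709, plus strand: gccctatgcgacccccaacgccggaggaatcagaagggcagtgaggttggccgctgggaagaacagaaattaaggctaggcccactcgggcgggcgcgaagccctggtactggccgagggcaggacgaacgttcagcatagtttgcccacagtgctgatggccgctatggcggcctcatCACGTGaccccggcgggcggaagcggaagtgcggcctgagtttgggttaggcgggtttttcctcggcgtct
Vps18, GRCr8 chr3:126733026-126733275, plus strand: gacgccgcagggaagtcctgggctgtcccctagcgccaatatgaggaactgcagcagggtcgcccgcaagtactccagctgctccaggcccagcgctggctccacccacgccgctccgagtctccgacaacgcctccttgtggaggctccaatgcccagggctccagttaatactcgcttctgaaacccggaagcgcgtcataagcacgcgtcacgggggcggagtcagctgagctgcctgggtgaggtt
Vps33a held 2 copies, which begin 46 and 30 bases before the start, Vps11 held 1 at 25 bases and Vps16 1 at 71 bases. No copy lay in this window of Vps18, nor in those of Snx10, Vps13c and Vps52. No window is given for Snx27. A match is a description of letters and not a binding site. Of the 10 genes with the hexamer, 1 had a differing probe set, Vps33a, and of all 57 member genes with a kept probe set 5 did. Vps11 and Vps16, which also hold the hexamer, differed by 0.13 and -0.053 without passing. A link between the hexamer and the strain differences was not tested.

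In ESCRT, the machinery that sorts ubiquitinated receptors into multivesicular bodies, none of the 9 kept probe sets of 8 genes passed in limma, and 1 had an unadjusted p below 0.05. That was Vps28, an ESCRT-I subunit, with 529, 572, 463, 524 and 559 in SHR and 584, 638, 664, 596 and 624 in WKY. No SHR array reached the lowest WKY array, though the margin was small, and the log2 difference was -0.23 ± 0.064 (adjusted p = 0.0564). Without SHR 5 it passed, at -0.25 (adjusted p = 0.0466), and over all alternatives the difference ran from -0.25 to -0.17, with an adjusted p of up to 0.367. The ESCRT-I subunits Vps37a to Vps37d differed by -0.055, 0.087, 0.043 and -0.045, and Vps36 of ESCRT-II by 0.12. The ATPases that disassemble ESCRT, Vps4a and Vps4b, differed by -0.054 and -0.094 on their brightest probe sets. The single probe set of Vps25 was too dim, at 13.1 to 20.1 in SHR and 8.72 to 14.2 in WKY.

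The 4 Vps13 genes, whose products bridge membranes and carry lipid along a groove, had log2 differences from -1.11 to 0.21. Of their 4 kept probe sets 1 passed, or 25% against 4.26% of all probe sets. Vps13c, which works between the endoplasmic reticulum and late endosomes or lipid droplets, had signals of 4.43, 23.4, 29.1, 10.9 and 3.15 in SHR and 47.2, 57.8, 34.1, 38.3 and 52.8 in WKY. All SHR arrays were below all WKY arrays, and SHR 2 and SHR 3, the arrays with the highest median signals, were the highest of the SHR values. The log2 difference was -1.11 ± 0.22 (adjusted p = 0.00744), and it ran from -2.01 with an offset of 1 to -0.50 with an offset of 64. No SHR array and all 5 WKY arrays reached the filter level, so this probe set passed the filter only through the strain in which it is higher. The filter at the 60th percentile removed it. Vps13d, which serves mitochondria and peroxisomes, was on the other side of 0, with 144, 132, 119.7, 143 and 120.4 in SHR and 111, 111, 112, 118 and 105 in WKY. The strains did not overlap, yet the log2 difference of 0.21 ± 0.078 did not pass (adjusted p = 0.129). Vps13b, a Golgi and endosome protein, had 214, 199, 186, 222 and 221 in SHR and 215, 202, 194, 231 and 202 in WKY, a log2 difference of -0.0033 (95% confidence interval from -0.16 to 0.15). Vps13a, the product of which is lost in chorea-acanthocytosis, had 37.8, 25.8, 40.8, 44.3 and 9.19 in SHR and 32.1, 30.8, 45.6, 35.5 and 30.5 in WKY, a log2 difference of -0.15 ± 0.20 in which SHR 5 was the lowest array.

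Snx10 had the smallest adjusted p of all members. Snx10 is a small sorting nexin, little more than a PX domain, that is known for its role in endosome shape and in bone resorption by osteoclasts. Probe set 1379275_at had 199.7, 195, 196, 194 and 194 on the SHR arrays and 299, 356, 341, 389 and 394 on the WKY arrays. The SHR arrays were nearly equal (SD 2.54), the WKY arrays more spread (SD 38.6), and all SHR values were far below all WKY values. The decrease was 1.75-fold (log2 difference -0.81 ± 0.073, adjusted p = 2.46e-06), and the call held in all 22 alternatives fitted on probe sets, with differences from -0.87 to -0.69. Its second probe set, 1383585_s_at, had 474, 398, 348, 459.6 and 546 in SHR and 456, 422, 426, 585 and 517 in WKY. There the strains overlapped, and the log2 difference was -0.11 ± 0.11 (adjusted p = 0.583). The strain differences of the 2 probe sets lay 0.69 apart.

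The other sorting nexins did not pass. Snx19, of the group with an RGS-like domain, had 59.2, 61.3, 75.8, 66.2 and 54.3 in SHR and 83.0, 79.1, 68.1, 85.4 and 75.9 in WKY (a difference of -0.25 ± 0.099 on the log2 scale; adjusted p = 0.154), and its second probe set differed by -0.16. Snx14 and Snx25 of the same group differed by -0.14 and 0.057. The SNX-BAR proteins Snx4, Snx7 and Snx8, not tied to retromer, lay between -0.074 and 0.026. Of these, Snx7 had 101, 104, 76.7, 98.3 and 104 in SHR and 102, 86.5, 106, 103 and 114 in WKY. Of the SH3-domain nexins, which act with dynamin in endocytosis, Snx33 had 55.7, 36.1, 65.3, 30.9 and 39.3 in SHR and 30.8, 39.5, 46.7, 32.3 and 23.9 in WKY (0.27 ± 0.16; adjusted p = 0.377), and Snx18 differed by 0.066. Snx9 of that group had the clearest gap among the 16 probe sets that were too dim, with 13.0, 5.86, 7.48, 10.7 and 8.50 in SHR and 42.2, 15.6, 43.7, 39.4 and 58.5 in WKY. It was the 1 of those 16 whose strains did not overlap, against 4.01% of all dim probe sets. Without the filter on low signals it passed, at -1.11 ± 0.20 (limma, adjusted p = 0.00965 over 31042 probe sets). Apart from 1 probe set of Snx10, the 8 probe sets of Snx10, Snx11, Snx15, Snx16, Snx21 and Snx24 lay between -0.18 and 0.048. Vps72, a subunit of chromatin remodelling complexes and no endosomal protein despite its name, had 137, 101, 116, 133 and 142 in SHR and 166, 159.9, 117, 164 and 135 in WKY (-0.21 ± 0.10; adjusted p = 0.263), and Vps45 and Vps9d1 differed by -0.084 and -0.040.

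**Figure D3:**
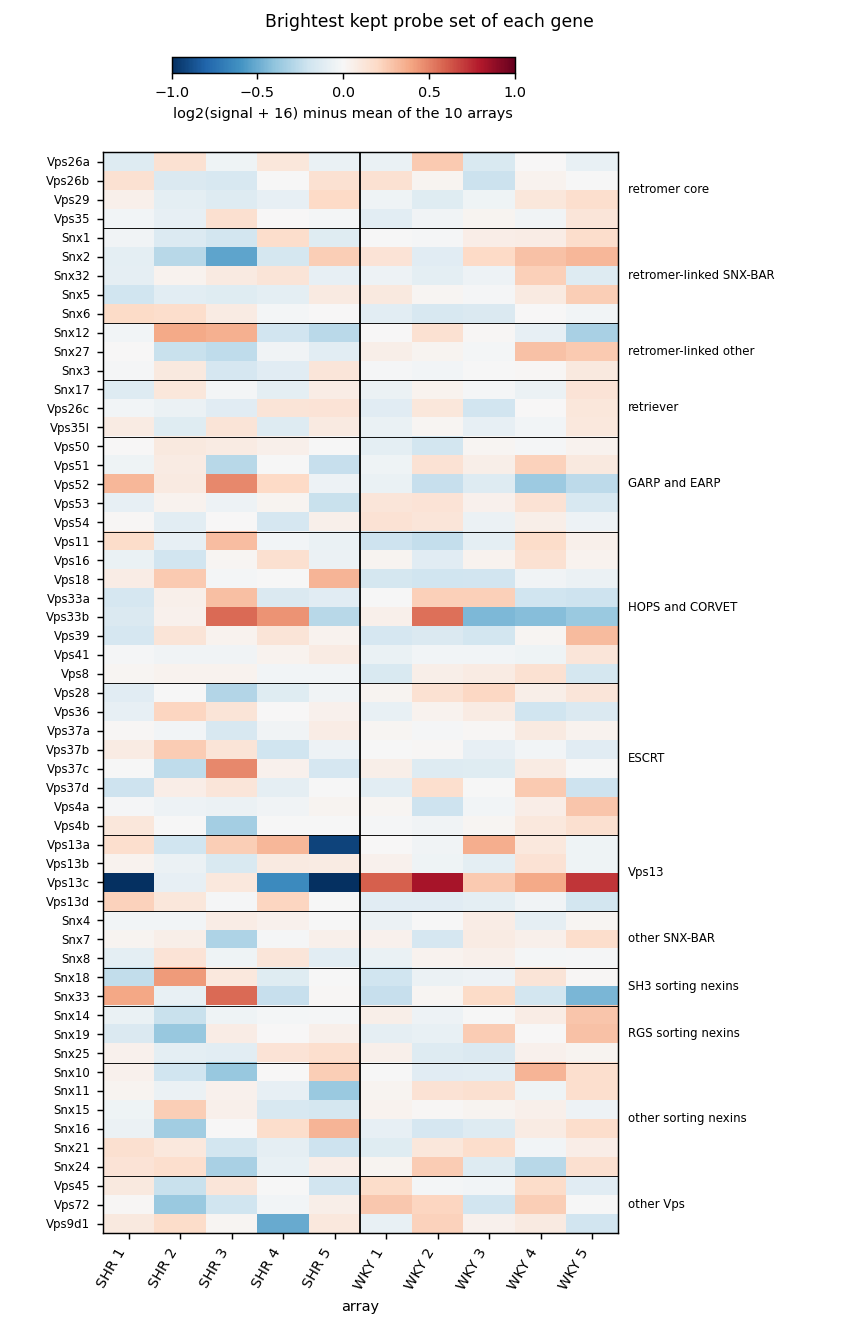
Log2(signal + 16) of the brightest kept probe set of each of 57 genes (rows, by complex) on the 10 arrays (columns), minus the mean of that row, with the colours limited to 1 log2 unit on either side. Vps13c is below its mean on every SHR array except SHR 3 and above it on every WKY array, while the retromer core rows are pale throughout; the differing probe sets of Snx10, Snx27 and Vps33a are not the brightest of their genes and are not drawn.

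Of the 60 genes, 13 had several probe sets that passed the filter. Within these, the log2 differences of a gene's probe sets spanned a median of 0.30 units, compared with 0.18 units for the 2566 genes of the whole array with several kept probe sets. The span was widest for Snx27 (1.29), followed by Snx10 (0.69), Vps33a (0.67) and Vps52 (0.56). The sign was shared by all kept probe sets in 7 of the 13. A span of 1 or more was found in 16 of the 2566 genes, of which Snx27 is 1. The choice of probe set therefore set which genes were called: with the brightest probe set of each gene, 2 genes passed (Vps13c and Vps52; 4.11% of all genes did), and with the mean of the kept probe sets 5 did (Snx10, Snx27, Vps13c, Vps18 and Vps52; 3.81% of all genes).

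The proteins that work with these complexes were followed in 8 lists, which held 159 further probe sets bright enough to test. Of these, 1 was lower and 3 were higher in SHR, 2.52% against the 4.26% of all probe sets, with a median of 0.016. No probe set passed in limma among the partners of retromer and the WASH complex (18 tested), COMMD proteins (17), partners and SNAREs of GARP (15) or HOPS (27) and other bridge-like lipid carriers with Vps13 partners (18), where 4, 1, 0, 7 and 2 had an unadjusted p below 0.05. In the list of ESCRT subunits not named Vps, 2 of 26 passed (7.69%), both of Chmp1b, and they went in opposite directions. Chmp1b is an ESCRT-III protein that coats tubules. Its probe set 1385158_at had 40.7, 45.0, 20.1, 54.8 and 39.7 in SHR and 102, 79.9, 84.2, 96.5 and 89.0 in WKY (-0.95 ± 0.15; adjusted p = 0.000905). Probe set 1390128_at had 154, 149, 137, 134 and 135 in SHR and 101, 115, 109, 92.4 and 91.4 in WKY (0.43 ± 0.082; adjusted p = 0.00552). Neither overlapped between the strains, and a further probe set of Chmp1b differed by 0.090. Probe set 1382129_at of Chmp1b was too dim for the filter, at 6.26 to 16.4 in SHR and 16.8 to 24.4 in WKY. Its strains did not overlap either, as was found for 4.01% of all dim probe sets.

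Pik3c3, the mammalian Vps34, makes the phosphoinositide that PX domains of sorting nexins bind on endosomes. It had signals of 118, 134, 115, 114 and 87.4 in SHR and 75.7, 77.3, 74.3, 81.8 and 75.9 in WKY. All SHR arrays lay above the tightly grouped WKY arrays, and the log2 difference was 0.47 ± 0.096 (limma, adjusted p = 0.00855). It was the 1 of 13 probe sets of phosphoinositide kinase complexes to pass, or 7.69% against 4.26% of all probe sets. Among 28 probe sets of cargo carried by retromer and sorting nexins, 1 passed (3.57%), of App, the amyloid precursor protein. It had 2820.4 to 3798 in SHR and 2379.7 to 2856 in WKY, which gave a log2 difference of 0.32 ± 0.076 (adjusted p = 0.0234), while another App probe set differed by 0.0027 and the strains overlapped on both. After adding array median signal as a covariate, 0 of the 159 partner probe sets passed.

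The genes that flank the 5 members with a differing probe set were set beside them by their order in RefSeq's GRCr8 assembly, taking the 5 nearest protein-coding genes on each side. These 50 neighbours had 39 probe sets bright enough, several for some genes and none for others. Of the 39, 4 passed, or 10.3% against 4.26% of all probe sets. Near Vps52 it was RT1-A3, a class I gene of the rat major histocompatibility complex 3 genes away, with mean signals of 61.2 in SHR and 35.0 in WKY (a difference of 0.60 ± 0.13 on the log2 scale; adjusted p = 0.0153), and class I genes have near-identical copies that a probe set may not separate. Near Vps33a it was Zcchc8 (0.37 ± 0.097), which was higher where the Vps33a probe set was lower. Near Vps13c both were of Tpm1, at 0.44 ± 0.085 and -0.54 ± 0.12. No tested neighbour of Snx10 (5 probe sets, all of Hnrnpa2b1 or Skap2) or Snx27 (9 probe sets) passed in limma. The remaining neighbours of Snx10 were not tested. An unadjusted p below 0.05 was found for 1 probe set near each of these 2 genes, 4 of 8 near Vps33a, 4 of 8 near Vps52 and 2 of 9 near Vps13c.

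**Figure D4:**
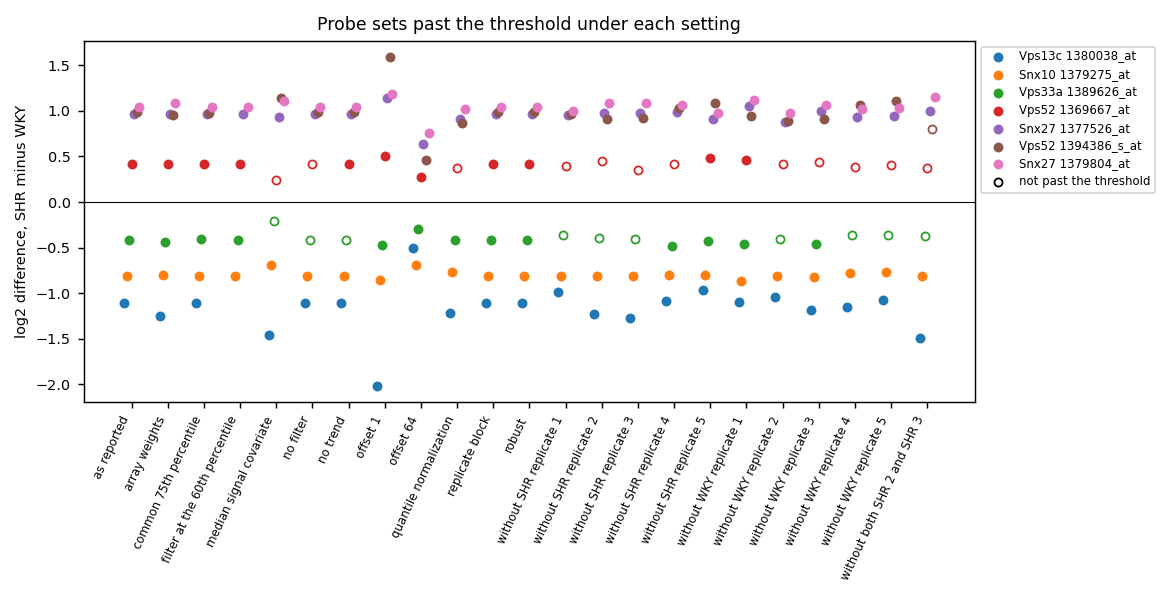
Log2 difference (SHR minus WKY, vertical axis) of the 7 differing probe sets as reported and under each alternative setting (horizontal axis), with open points where adjusted p was not below 0.05. Snx10, both Snx27 probe sets and Vps13c stay filled wherever they were tested, while the Vps33a probe set and the Vps52 probe set at 0.42 are open in 10 and 12 settings. Settings that leave arrays out did not apply the filter again, and Vps13c reached the filter level on 5 arrays, all of WKY.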

How the data were processed

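The authors deposited 1 linear intensity per probe set and array. The submitters' processing notes name GCOS 1.2, and how probes were summarised is not stated there. Arrays had been scaled before deposit, since their mean intensity with 2% trimmed from both tails is 100 on all 10. Labels give no batch.

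Titles gave the strain, and the array of each strain that has no number is called 1. No normalization was added. The 57 control probe sets were left out. Probe sets needed 5 or more of 10 arrays at or above the array's own 40th percentile, and 18846 of 31042 met this. In limma 3.58.1 under R 4.3.3, log2(signal + 16) was modelled on strain alone, using eBayes with an intensity trend, and adjusted p below 0.05 was the threshold. The offset understates changes of low signals. The number of arrays limits the precision.

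Symbols came from the platform annotation (20826 probe sets with 1 symbol, 436 with several, 9780 with none). Described in full are all members that passed, other probe sets of their genes, the brightest of each retromer core and Vps13 gene, the one of smallest p in each other group, and partners that passed. Vps18, Snx5, Snx6, Snx9, neighbouring genes, the hexamer and the spans between probe sets of a gene were added after their values were seen. Members and lists were chosen with earlier results of these data known.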

Additional observations from a re-analysis of the deposited data

Results flagged for a closer look

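Among the 29 probe sets described in full, each strain's 5 arrays were checked for a single array far from the rest, 58 groups in all, and chance gives about 1 such group in 20. One was found: SHR 3 had a signal of 76.7 for Snx7, whereas the next lowest SHR array had 98.3. Its gap to the others was 0.802 of the range of the strain, above the limit of 0.71 for 5 arrays.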

How the results depend on the processing

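The 7 differing probe sets kept their sign in all 152 refits, and 129 of these kept the call. The 23 lost calls were of Vps33a (10), Vps52 1369667_at (12) and Vps52 1394386_s_at (1). Vps13c and Vps52 1394386_s_at each reached the filter level on just 5 arrays, and refits that left arrays out did not apply the filter again. The count of differing members was 7 as reported (3 lower, 4 higher) and 2 (1 lower, 1 higher) with the brightest probe set of each gene. Leaving out 1 array gave 5 to 9 members, 2 to 5 lower and 3 to 4 higher, 480 to 976 of all probe sets, and 3 to 5 partner probe sets; the lowest came without WKY 4 (480) or WKY 5 (481), and 5 lower members without SHR 5. The median-signal covariate gave 209 probe sets in all and 0 partners, against 803 and 4. Without both SHR 2 and SHR 3 there were 512 in all, 2 higher members and 2 partners.

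With the replicate number as a block, 1214 probe sets, 6 lower members (Snx2, Vps33a 1385081_s_at and Snx27 1372203_at added) and 8 partners passed. Same-numbered arrays correlated at 0.038 to 0.282 in their deviations, and 3 of 5 SHR arrays matched their own number best. The labels do not say that equal numbers mark pairs, so the fit as reported has no block. Whether same-numbered arrays share a source of spread is not known. The block ended no call of the 7.

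Differences near 0 turned sign without passing. With the covariate they were -0.0014 for Snx33, 0.11 for Vps13b, 0.047 for Snx7, 0.23 for Snx10 1383585_s_at, -0.025 for Vps26a, 0.13 for Vps26b and 0.16 for Vps29. With quantile normalization they were 0.0094 for Vps33a 1387557_s_at, 0.028 for Vps13b, 0.040 for Vps26b, 0.016 for Vps29 and -0.013 for Snx27 1381394_at. With array weights they were 0.0086 for Vps13b, -0.010 for Vps26a and 0.024 for Vps26b. Without both SHR 2 and SHR 3 they were 0.065 for Vps13b, 0.042 for Snx10 1383585_s_at, -0.018 for Vps26a, 0.10 for Vps26b, 0.041 for Vps29 and -0.0080 for Vps35. Leaving out 1 array gave -0.10 to 0.035 for Vps33a 1382156_at, -0.11 to 0.028 for Vps33a 1387557_s_at, -0.26 to 0.058 for Vps13a, -0.028 to 0.034 for Vps13b, -0.018 to 0.059 for Vps26c, -0.025 to 0.079 for Vps26a, -0.054 to 0.038 for Vps26b, -0.078 to 0.012 for Vps29, -0.024 to 0.045 for Vps35 and -0.032 to 0.080 for Snx27 1381394_at. The cause was not tested.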
